A study of Mus musculus with 8 samples.

Results

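The genes described are 10 transcription factors and response genes of the immediate early class, of 29079 genes in the count table. They are the AP-1 subunit genes Fos, Fosb, Jun, Junb and Jund, the factors Egr1 and Atf3, the response genes Ier2 and Ier3, and Myc. They were given as a list of symbols, chosen with earlier results of these data known, and each symbol matched 1 Ensembl gene. All 10 passed the filter on low counts and were tested among 14923 genes.

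The libraries were made from MC38, a mouse colon adenocarcinoma cell line. The WT line carries a CRISPR control, and the KO line was edited with 1 guide RNA against Piezo2, a mechanically gated ion channel, so both had been through CRISPR editing. Each line was either left unirradiated (0 Gy) or given 30 Gy of X-rays in a single dose, and the RNA of the irradiated cells was taken 60 hours later. Each of the 4 groups has 2 libraries. The sources used here do not say whether the KO line is a clone or a pool, or whether a group's libraries are separate cultures. The p-values therefore measure only the spread between these libraries, which may be technical.

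Total counts ran from 10971004 to 19887180 per library, and mitochondrial transcripts took 2.17 to 2.91 percent of them. Piezo2, the targeted gene, had 0 and 0 reads in unirradiated WT, 3 and 9 in irradiated WT, 0 and 1 in unirradiated KO, and 7 and 12 in irradiated KO, so its mRNA did not separate the lines. The libraries of this colon adenocarcinoma line held 526 to 1365 reads of the epithelial cadherin Cdh1. Of the keratin genes Krt8 had at most 20 reads, Krt18 at most 2 and Krt19 at most 28, while the collagen gene Col1a2 reached 24707. The 10 fibroblast markers summed to 1150 to 1260 CPM (reads scaled to 1 M per library) in unirradiated and 1630 to 1810 in irradiated WT. In KO they summed to 1560 to 1690 and 2600 to 2910 CPM. Of 7 tested 6 rose with irradiation in each line. In KO the remaining one, Pdgfra, fell by -0.32 on the log2 scale (edgeR adjusted p = 0.014), and DESeq2 called none lower. The 12 macrophage markers summed to 3.83 to 3.87 and 37.5 to 39.6 CPM in WT and to 7.32 to 8.11 and 56.2 to 64.8 in KO. Of 4 macrophage markers tested, 3 rose with irradiation in WT and 4 in KO (edgeR adjusted p under 0.05). Cd68 made up most of the sum, and the common leukocyte gene Ptprc went from 0 and 2 reads to 20 and 20 in WT and from 0 and 0 to 6 and 7 in KO. Lyz2 reached 14 reads, Ctss 17 and Csf1r 10, all in irradiated libraries, while C1qa, C1qb, Itgam, Adgre1 and Tyrobp had at most 2 in any library. The 7 endothelial markers summed to 3 to 3.16 CPM in unirradiated and 13.8 to 18.8 in irradiated WT, and to 8.06 to 9.06 and 13.5 to 15.6 in KO, and of 4 tested 2 rose in WT and 3 in KO. The 7 T and NK cell markers in the table summed to at most 0.798 CPM. The 6 epithelial markers in the table summed to 41 to 41.5 CPM in unirradiated and 76.3 to 79.3 in irradiated WT. In KO they summed to 48.4 to 51.5 and 79.4 to 80.6 CPM, and of 3 tested 2 rose in each line. The 13 heat shock genes, which also answer to handling, summed to 12400 to 13200 and 9890 to 10500 CPM in WT and to 10200 to 10500 and 6990 to 7460 in KO. The part of these differences in the results below was not tested. In bulk RNA, fewer cells with a transcript and less of it per cell cannot be told apart.

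Immediate early genes are transcribed within minutes of a growth factor, stress or calcium signal, from factors already present in the cell, and their messages are short-lived. Jun and Fos proteins pair through leucine zippers to form AP-1, and different pairs bind DNA and activate genes to different degrees. Myc pairs with Max to drive genes of ribosome synthesis, nucleotide supply and cell growth, and Mxd proteins compete with it for Max. The measurement at 60 hours is long after the first wave of such a response, so the levels after irradiation describe a late state of the culture. No harvest time is given here for the unirradiated cells. A difference in culture time between the doses therefore cannot be told apart from irradiation.

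At that late time the 10 genes did not move as a group. After 30 Gy, Junb and Fosb rose in both lines, Jun, Ier2 and Myc fell in both, and Egr1 fell in WT. Between the lines, Jun was lower and Jund higher in KO with and without irradiation, and after irradiation Myc and Junb were also lower and Egr1 and Atf3 higher in KO. In WT, 2 of the 10 rose and 4 fell (edgeR quasi-likelihood test, adjusted p under 0.05 over all tested genes), beside 20.4 percent of all genes that rose and 18.4 percent that fell. In KO, 2 rose and 3 fell, beside 21.1 and 18.6 percent of all genes. KO against WT called 1 higher and 1 lower without irradiation, beside 10.4 and 9.49 percent, and 3 higher and 3 lower after it, beside 13.3 and 11.4 percent. The count between the unirradiated lines was at the background share, and rises with irradiation were too. The falls and the calls between the irradiated lines were above it by few genes. DESeq2, another test, called 1 and not 3 higher between the irradiated lines. With only 10 genes, chosen with earlier results known, counts this small are not read as a trait of the list.

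Replicates with the same number deviated together, so a fit with the replicate number as a block was also made. With irradiation it called 2 higher and 6 lower in WT, beside 30.6 and 29.9 percent of all genes, and 4 higher and 5 lower in KO, beside 30.6 and 29.6 percent. It called 3 higher and 4 lower between the unirradiated lines, beside 21.4 and 23.5 percent, and 6 higher and 3 lower between the irradiated lines, beside 25.2 percent each way. Where the block changes the call of one of the 10 genes, its adjusted p is given with that gene as "block adjusted p". Where a call is lost when 1 library is left out, the library and the adjusted p without it are given.

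**Figure D1:**
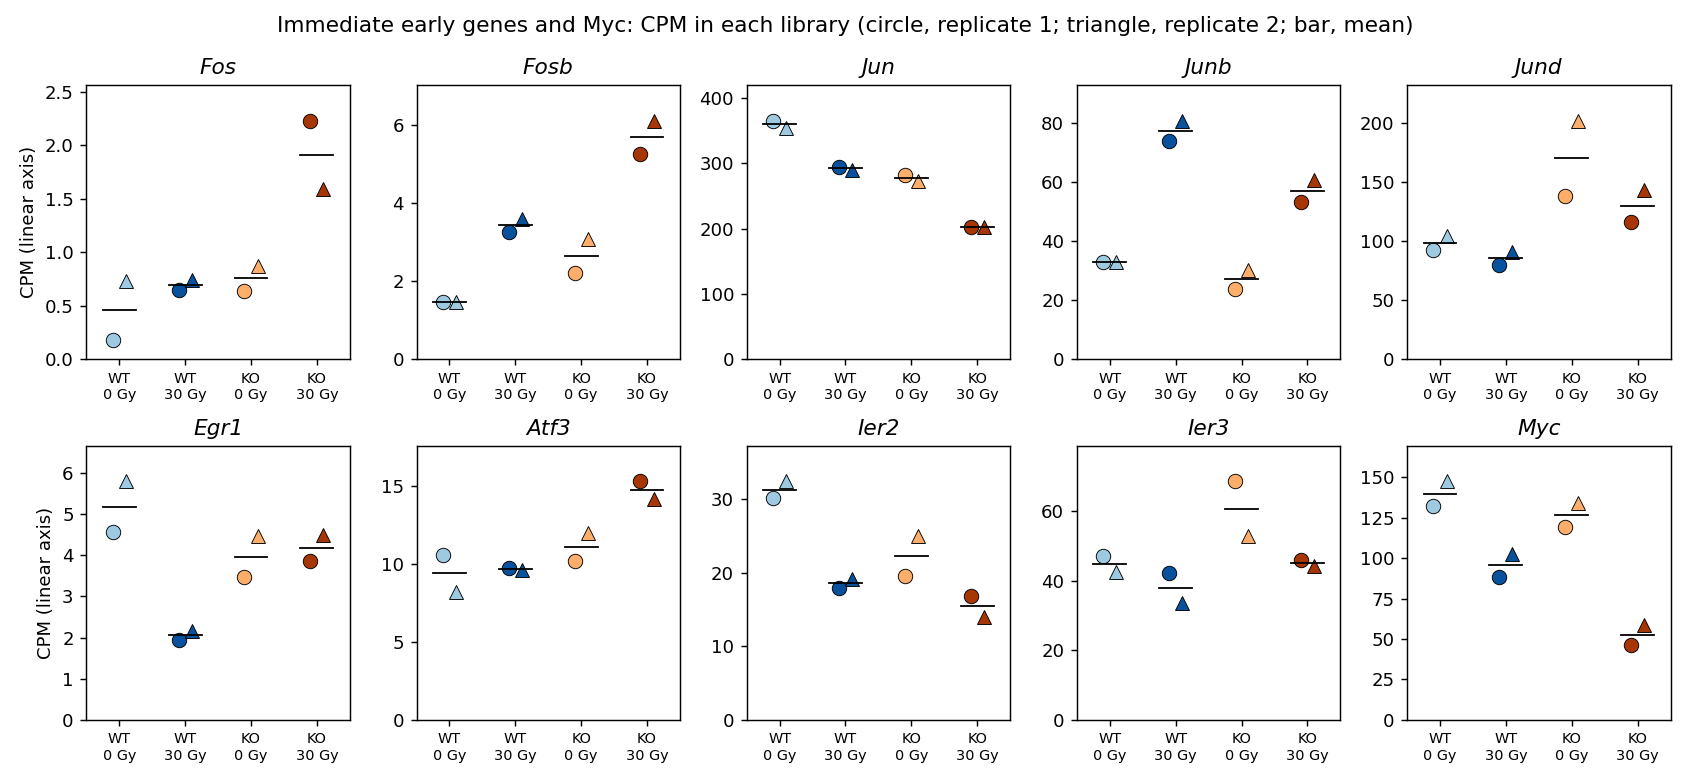
CPM of each of the 10 genes (vertical axis, linear, from 0) in the 4 groups, with a circle for replicate 1, a triangle for replicate 2 and a bar for their mean. Mean Junb rises with 30 Gy in both lines, from 32.8 to 77.5 CPM in WT and from 27.0 to 57.1 in KO, and Myc is lowest in irradiated KO, at 46.5 and 58.8.

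Levels of different genes were compared per kilobase of exon. In unirradiated WT, Jun stood first at 113 ± 2.47 CPM per kb (SD, n = 2). Jund at 58.9 ± 5.11 and Myc at 51.5 ± 3.92 came next and overlapped within 1 SD. Below them stood Ier3 at 39.7 ± 2.84, Ier2 at 20.6 ± 1.03, Junb at 14.3, Atf3 at 4.36 ± 0.783 and Egr1 at 1.16 ± 0.195. Fosb at 0.234 and Fos at 0.195 ± 0.166 were at the bottom and overlapped. The length is the union of all annotated exons, which for Fosb is long at 6243 bases against 2352 for Fos, so the order of close neighbours depends on it.

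The order differed in irradiated KO. Jund led there at 78.0 ± 11.3 CPM per kb, above Jun at 63.4 ± 0.184. Ier3 followed at 39.9 ± 1.14, then Junb at 24.8 ± 2.32 and Myc at 19.4 ± 3.2, which overlapped within 1 SD. Ier2 at 10.1 ± 1.35 and Atf3 at 6.83 ± 0.378 were lower, and Egr1 at 0.934 ± 0.0994, Fosb at 0.909 ± 0.0963 and Fos at 0.814 ± 0.191 overlapped at the bottom. In irradiated WT, Myc at 35.2 ± 3.76, Junb at 33.7 ± 2.11 and Ier3 at 33.6 ± 5.4 overlapped in the middle of the order. In unirradiated KO, Jund at 102 ± 27 and Jun at 87.1 ± 1.96 overlapped at the top.

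Jun, the founding AP-1 subunit and a target of the JNK kinases (chromosome 4, 95049034 to 95052222, minus strand, GRCm38), was the most abundant of the 10 by CPM in every library. It had 366 and 354 CPM in replicates 1 and 2 of unirradiated WT, 295 and 290 in irradiated WT, 282 and 273 in unirradiated KO, and 203 and 202 in irradiated KO. The 4 groups did not overlap, and the order ran from unirradiated WT down to irradiated KO. Irradiation lowered Jun by a log2 change of -0.30 ± 0.07 (SE, edgeR adjusted p = 0.0101) in WT. In KO the change was -0.46 ± 0.07 (edgeR adjusted p = 0.00152). The WT call was lost without unirradiated WT replicate 1 (adjusted p = 0.0522) or irradiated WT replicate 2 (0.0616).

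Between the lines, Jun was lower in KO by -0.37 ± 0.07 on the log2 scale without irradiation (edgeR adjusted p = 0.00783) and by -0.53 ± 0.07 after it (edgeR adjusted p = 0.00125). The first call was lost without unirradiated WT replicate 1 (adjusted p = 0.0549) or unirradiated KO replicate 2 (0.0555). Junos, an antisense gene whose exons overlap those of Jun on the other strand, had 31.6 and 24.9 CPM in unirradiated KO against 63.9 and 58.1 in unirradiated WT. Its KO effect was -1.12 ± 0.14 without and -0.68 ± 0.14 after irradiation (edgeR adjusted p = 0.00193 and 0.0113). The sources used here do not give the strand setting of the counting, so reads of the pair cannot be told apart.

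Junb, a Jun family member that often restrains Jun activity (chromosome 8, 84974484 to 84978718, minus strand), had 32.8 and 32.8 CPM in unirradiated WT and 74 and 80.9 in irradiated WT. In KO it went from 23.7 and 30.4 CPM to 53.3 and 60.8. Every irradiated library stood above every unirradiated one. The log2 change was 1.24 ± 0.13 in WT, a 2.36-fold rise (edgeR adjusted p = 0.000331). In KO it was 1.07 ± 0.13, or 2.1-fold (edgeR adjusted p = 0.000632). Both calls held in all 8 fits that left out 1 library. After irradiation Junb was lower in KO by -0.44 ± 0.13 (edgeR adjusted p = 0.0381), but this call was lost in 6 of 8 such fits, with adjusted p up to 0.212. It remained without either replicate of unirradiated KO.

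Without irradiation the lines differed in Junb by -0.27 (edgeR adjusted p = 0.2, block adjusted p = 0.01). Prdx2, a peroxidase gene whose exons overlap Junb on the opposite strand, had 141 and 152 CPM in unirradiated and 178 and 184 in irradiated WT. It changed by 0.30 ± 0.08 with irradiation in WT (edgeR adjusted p = 0.0158) and by 0.24 ± 0.08 in KO (edgeR adjusted p = 0.0368). Its reads and those of Junb at the overlap cannot be told apart without the strand setting.

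Jund, the Jun family member that most cells express at rest (chromosome 8, 70698949 to 70700616, plus strand), had 92.3 and 104 CPM in unirradiated WT, 80.1 and 90.8 in irradiated WT, 139 and 202 in unirradiated KO, and 117 and 143 in irradiated KO. Every KO library was above every WT library. Replicate 2 was the higher one in each group, and the gap was widest in unirradiated KO. The KO effect was 0.80 ± 0.18 on the log2 scale without irradiation (edgeR adjusted p = 0.0204) and 0.61 ± 0.18 after it (edgeR adjusted p = 0.0471). The first call was lost without unirradiated WT replicate 1 (adjusted p = 0.116), unirradiated WT replicate 2 (0.0661) or unirradiated KO replicate 2 (0.0876). The second was lost in 6 of 8 fits that left out 1 library, with adjusted p up to 0.199, and remained without either replicate of unirradiated KO. The irradiation effect on Jund was -0.20 in WT (edgeR adjusted p = 0.427, block adjusted p = 0.00323) and -0.39 in KO (edgeR adjusted p = 0.124, block adjusted p = 7.18e-08). The annotated antisense gene Gm11175 overlaps Jund and was not analysed here.

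Fos, the classic serum-induced partner of Jun (chromosome 12, 85473890 to 85477273, plus strand), was close to the limit of detection. It had 3 and 11 reads in unirradiated WT, 9 and 13 in irradiated WT, 7 and 17 in unirradiated KO, and 34 and 28 in irradiated KO. Both irradiated KO libraries, at 2.23 and 1.6 CPM, were above all others, whose highest value was 0.873 CPM. The irradiation effect on Fos was 1.30 ± 0.57 in KO (edgeR adjusted p = 0.108, block adjusted p = 0.0215), and after irradiation the difference of KO from WT was 1.44 ± 0.57 (edgeR adjusted p = 0.109, block adjusted p = 0.0139). In WT the irradiation effect was 0.62 ± 0.63 (edgeR adjusted p = 0.483), with a 95 percent interval of -0.86 to 2.09. Without irradiation the lines differed by 0.76 ± 0.63 (edgeR adjusted p = 0.46).

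Fosb, a Fos family gene with a long-lived splice form in neurons (chromosome 7, 19302696 to 19310051, minus strand), was also low. It had 1.46 and 1.47 CPM in unirradiated WT, from 24 and 22 reads, and 3.24 and 3.59 in irradiated WT. In KO it had 2.2 and 3.08 CPM without irradiation and 5.25 and 6.1 after it. Each irradiated group stood above its own unirradiated group, and each KO group stood above the WT group of the same dose. The rise was 1.22 ± 0.26 on the log2 scale in WT, or 2.33-fold (edgeR adjusted p = 0.0086). In KO it was 1.09 ± 0.25, or 2.13-fold (edgeR adjusted p = 0.0109), and this call was lost without unirradiated KO replicate 1 (adjusted p = 0.0604) or irradiated KO replicate 2 (0.0728). Fosb differed between the lines by 0.86 ± 0.27 without irradiation (edgeR adjusted p = 0.0579, block adjusted p = 0.0173) and by 0.73 ± 0.24 after it (edgeR adjusted p = 0.0662, block adjusted p = 0.0067).

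The promoter stretches of Junb and Fosb, the pair that rose in both lines, are shown with those of Fos and of Jun, which fell. Each is read in the sense of the gene, 5′ to 3′, from 140 to 11 bases before the RefSeq transcription start on GRCm38.p6. Capitals mark only the exact letters TGACG, the core of the cAMP response element that ATF, CREB and Jun proteins bind. The Jun stretch holds the near match tgacatca, which was not searched for and is left unmarked. The lack of capitals in Jun therefore does not show that these proteins have no site there.
Junb: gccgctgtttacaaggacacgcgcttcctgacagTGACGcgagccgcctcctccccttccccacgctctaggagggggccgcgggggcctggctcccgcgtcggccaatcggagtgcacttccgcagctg
Fosb: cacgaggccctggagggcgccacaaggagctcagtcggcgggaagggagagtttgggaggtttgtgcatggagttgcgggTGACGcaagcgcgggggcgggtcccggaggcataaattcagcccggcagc
Fos: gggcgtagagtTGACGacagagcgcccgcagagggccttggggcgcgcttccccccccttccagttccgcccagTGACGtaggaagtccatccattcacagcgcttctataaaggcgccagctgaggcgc
Jun: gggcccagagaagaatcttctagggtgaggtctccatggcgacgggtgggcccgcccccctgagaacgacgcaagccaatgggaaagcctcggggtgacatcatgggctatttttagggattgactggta
They lie at chr8:84978759-84978888 on the minus strand for Junb, chr7:19310056-19310185 on the minus strand for Fosb, chr12:85473750-85473879 on the plus strand for Fos and chr4:95052233-95052362 on the minus strand for Jun.

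RefSeq windows of 250 bases before the start were matched for 7 of the 10 genes, all but Egr1, Ier2 and Myc. Distances are counted from the RefSeq start, which for Junb, Fosb, Ier3, Jund and Atf3 is not the gene start given above. The shift is small for Junb, Fosb and Ier3 and large for Jund and Atf3. The Jund window, chr8:70697489-70697738, lies wholly upstream of the gene start at 70698949. The Atf3 window, chr1:191183334-191183583, lies inside the annotated gene, which starts at 191218039 on the minus strand. Sites found or absent in these windows do not describe those gene starts. On either strand, TGACG was found in 4 of the 7, beginning 129 and 66 bases before the start in Fos, 60 in Fosb, 106 in Junb and 7 in Atf3. It was searched after the sequences had been seen, and it occurs in 17.8 percent of 32851 windows of that length. The full cAMP response element, the AP-1 site TGANTCA, the E-box CACGTG, the ETS core CCGGAA and the CArG box (CC, 6 letters of A or T, GG) were found in 0 of the 7 windows. Over all windows they occur in 1.55, 6.75, 6.02, 12 and 1.47 percent. A match is only a run of letters, and the absence of one says only that these letters are not in these windows.

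Egr1, a zinc finger factor induced through ERK and SRF (chromosome 18, 34859823 to 34864984, plus strand), was low in all groups. It had 4.56 and 5.8 CPM in unirradiated WT and 1.95 and 2.17 in irradiated WT. In KO it had 3.48 and 4.47 CPM without irradiation and 3.87 and 4.5 after it. Irradiated WT was below all others, the KO groups overlapped each other, and unirradiated WT lay just above them. The fall in WT was -1.33 ± 0.25 on the log2 scale, or 2.51-fold (edgeR adjusted p = 0.00492). In KO the change was 0.07 ± 0.24 (edgeR adjusted p = 0.898), with a 95 percent interval of -0.49 to 0.63. After irradiation Egr1 was 1.02 ± 0.25 higher in KO than in WT (edgeR adjusted p = 0.022). DESeq2 gave 0.0621 for that difference, and the call was lost without any one of the 4 irradiated libraries, with adjusted p of 0.0599 to 0.109. Without irradiation the lines differed by -0.37 (edgeR adjusted p = 0.33).

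Atf3, a stress-induced factor of the ATF and CREB family that can pair with Jun proteins (chromosome 1, 191170296 to 191218039, minus strand), had 10.6 and 8.2 CPM in unirradiated WT, 9.73 and 9.58 in irradiated WT, 10.2 and 11.96 in unirradiated KO, and 15.3 and 14.1 in irradiated KO. Irradiated KO stood above all other libraries, and the other 3 groups lay close together. The KO effect after irradiation was 0.61 ± 0.16 on the log2 scale (edgeR adjusted p = 0.0322). DESeq2 gave 0.0685, and the call was lost without any one of the 4 irradiated libraries, with adjusted p of 0.0856 to 0.147. The irradiation effect on Atf3 was 0.41 ± 0.16 in KO (edgeR adjusted p = 0.0861, block adjusted p = 0.0142) and 0.04 ± 0.17 in WT (edgeR adjusted p = 0.884). The difference between the unirradiated lines was 0.24 ± 0.17 (edgeR adjusted p = 0.368).

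Ier2, a nuclear immediate early protein (chromosome 8, 84661331 to 84662852, minus strand), had 30.2 and 32.4 CPM in unirradiated WT and 18.0 and 19.2 in irradiated WT. In KO it had 19.5 and 25 CPM without irradiation and 16.9 and 14.0 after it. Unirradiated WT was above all other libraries. Irradiation lowered Ier2 by -0.75 ± 0.15 on the log2 scale in WT (edgeR adjusted p = 0.00572) and by -0.54 ± 0.15 in KO (edgeR adjusted p = 0.0238). The KO call was lost without unirradiated KO replicate 2 (adjusted p = 0.138) or irradiated KO replicate 2 (0.116). The difference between the unirradiated lines was -0.48 ± 0.15 (edgeR adjusted p = 0.0542, block adjusted p = 0.000307), and between the irradiated lines it was -0.27 ± 0.15 (edgeR adjusted p = 0.239).

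Ier3, a stress-induced regulator of survival and ERK signalling (chromosome 17, 35821684 to 35822923, plus strand), had 47.2 and 42.6 CPM in unirradiated WT, 42.3 and 33.7 in irradiated WT, 68.6 and 53.0 in unirradiated KO, and 46.0 and 44.2 in irradiated KO. Replicate 1 was the higher one in each group, and unirradiated KO was above all other libraries. No comparison of Ier3 passed the threshold in the edgeR fit without the block, but each irradiation and KO effect passed it with the block. The irradiation effect was -0.24 ± 0.15 in WT (edgeR adjusted p = 0.247, block adjusted p = 0.00778) and -0.43 ± 0.15 in KO (edgeR adjusted p = 0.0565, block adjusted p = 9.44e-06; DESeq2 0.0474). The KO effect was 0.43 ± 0.15 without irradiation (edgeR adjusted p = 0.0855, block adjusted p = 1.1e-05) and 0.25 ± 0.15 after it (edgeR adjusted p = 0.284, block adjusted p = 0.00621).

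Myc (chromosome 15, 61985391 to 61990374, plus strand) had 132 and 148 CPM in unirradiated WT, 88.3 and 103 in irradiated WT, 119 and 134 in unirradiated KO, and 46.5 and 58.8 in irradiated KO. The unirradiated lines overlapped, irradiated WT lay below them, and irradiated KO lay below all others. In WT the fall with 30 Gy was -0.55 ± 0.13 on the log2 scale, or 1.46-fold (edgeR adjusted p = 0.0135). This call was lost without unirradiated WT replicate 2 (adjusted p = 0.072) or irradiated WT replicate 1 (0.0775). In KO the fall was -1.27 ± 0.14, or 2.41-fold (edgeR adjusted p = 0.000335), and it was called in all 8 fits that left out 1 library. Between the lines Myc differed by -0.14 ± 0.13 without irradiation (edgeR adjusted p = 0.513, block adjusted p = 0.0136). After irradiation it was lower in KO by -0.86 ± 0.13, or 1.81-fold (edgeR adjusted p = 0.0034), and this call too held in all 8.

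**Figure D2:**
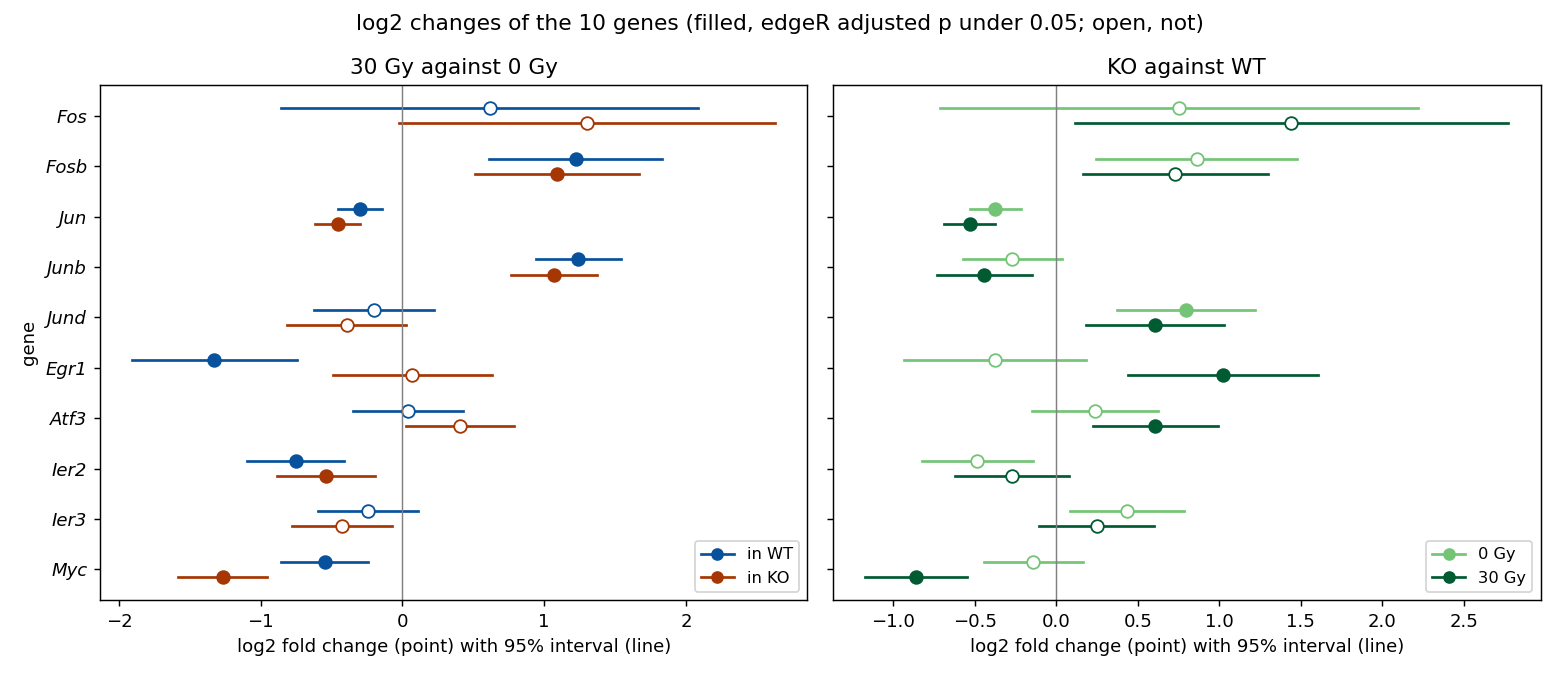
Log2 fold changes of the 10 genes (points) with 95 percent intervals (lines), for 30 Gy against 0 Gy in each line on the left and KO against WT at each dose on the right, with filled points for an edgeR adjusted p under 0.05. Junb and Fosb lie to the right of 0 and Jun, Ier2 and Myc to the left in both lines, while Egr1 is at -1.33 in WT and 0.07 in KO.

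Whether the response to irradiation differed between the lines was tested by the interaction, which is the log2 change in KO minus that in WT. By the edgeR test 0 of the 10 genes were called, beside 1.37 percent of all genes called higher and 0.57 percent lower. Of the 10, 2 had an unadjusted p under 0.05. Myc had an interaction of -0.72 ± 0.19 (unadjusted p = 0.00549, edgeR adjusted p = 0.141, block adjusted p = 4.95e-10). DESeq2 called it (adjusted p = 0.0236), as did edgeR without the low-count filter (9.07e-05), and leaving out 1 library gave 0.0887 to 0.392. Egr1 had an interaction of 1.39 ± 0.35 (unadjusted p = 0.00419, edgeR adjusted p = 0.12, block adjusted p = 0.00208). DESeq2 gave 0.244 for it, and leaving out 1 library gave 0.188 to 0.358. DESeq2 called 1 of the 10, which was Myc. With the block 1 was higher and 1 lower, beside 8.15 and 8.55 percent of all genes. For Junb, whose rises were alike in size, the interaction was -0.17 with a 95 percent interval of -0.60 to 0.25.

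The make-up of AP-1 transcripts was described as each gene's percentage of its family's summed CPM per kb. In the Jun family, the share of Junb went from 7.66 ± 0.113 percent in unirradiated to 19.1 ± 0.636 in irradiated WT (SD, n = 2) and from 5.83 ± 0.24 to 14.9 ± 0.141 in KO. Jun held 60.7 ± 2.19 and 52.0 ± 2.33 percent in WT, and 43.8 ± 6.86 and 38.3 ± 3.25 in KO. Jund held 31.6 ± 2.33 and 29.0 ± 1.7 percent in WT, and 50.4 ± 6.65 and 46.8 ± 2.97 in KO. Jun was thus the largest Jun family transcript in WT and Jund in irradiated KO, while the 2 overlapped within 1 SD in unirradiated KO. The family sum itself was 186 ± 2.62 CPM per kb in unirradiated WT, 177 ± 5.52 in irradiated WT, 201 ± 27.0 in unirradiated KO and 166 ± 13.4 in irradiated KO.

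In the Fos family the listed genes Fos and Fosb were minor throughout. Fosl1, which encodes Fra-1, held 84.4 ± 1.2 percent of the family in unirradiated WT, 56.0 ± 2.47 in irradiated WT, 62.1 ± 4.24 in unirradiated KO and 32.2 ± 1.2 in irradiated KO. Fosl2, which encodes Fra-2, held the bulk of the remainder, at 15.1 ± 1.34, 41.8 ± 2.47, 36.1 ± 4.53 and 61.1 ± 0.495 percent. Fosb reached 3.49 ± 0.191 percent and Fos 3.15 ± 0.891 percent in irradiated KO, from 0.287 ± 0.0247 and 0.229 ± 0.182 in unirradiated WT. The family sum was 81.8 ± 7.4, 37.8 ± 3.51, 40.9 ± 2.87 and 26.0 ± 1.32 CPM per kb in the same order of groups, so the shares of Fos and Fosb also moved with the level of Fosl1. Fosl1 fell by -1.70 ± 0.14 on the log2 scale with irradiation in WT and by -1.60 ± 0.15 in KO (edgeR adjusted p = 0.000126 and 0.000167). It was lower in KO by -1.44 without and by -1.34 after irradiation (edgeR adjusted p = 0.000601 and 0.000674).

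**Figure D3:**
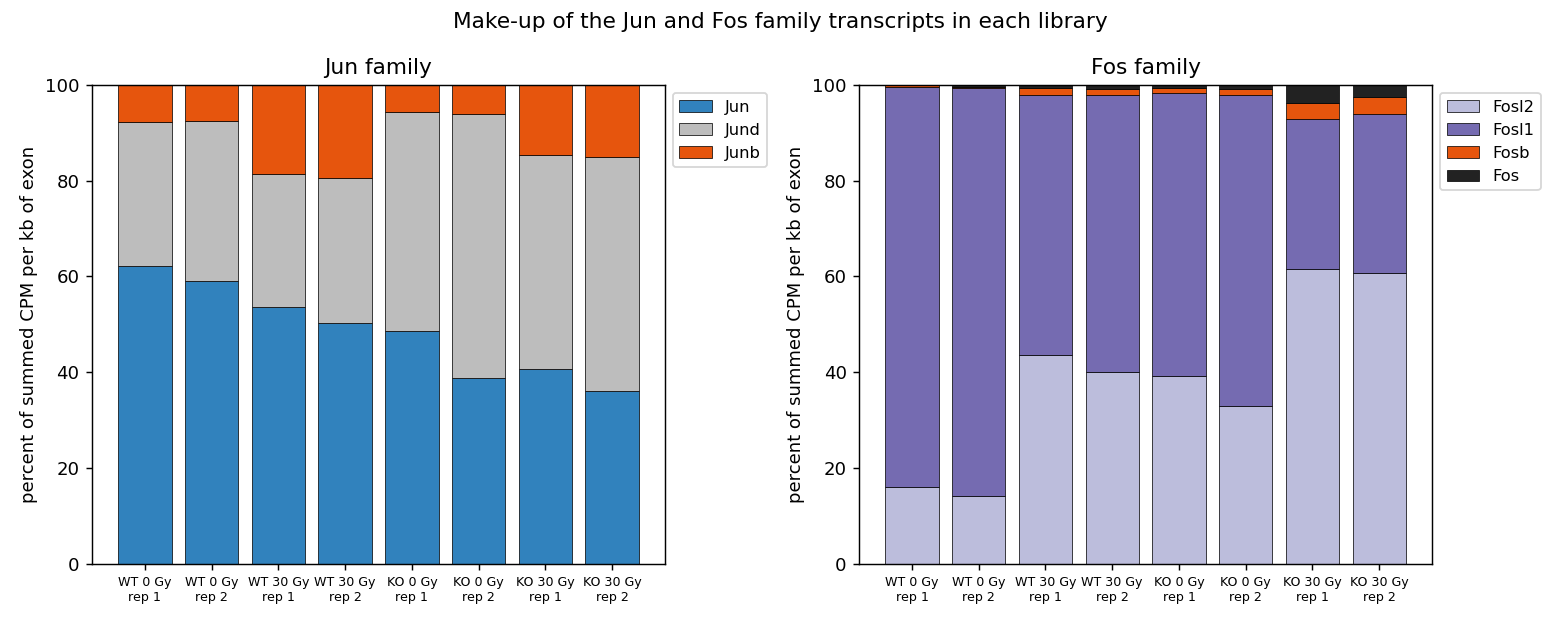
Percentage of the summed CPM per kb of exon held by each Jun family gene (left) and Fos family gene (right) in each of the 8 libraries. The Junb band widens with 30 Gy in both lines, to 19.1 percent in WT and 14.9 in KO, and Fosl1 narrows from 84.4 percent in unirradiated WT to 32.2 in irradiated KO.

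Among 18 other AP-1 and CRE-binding subunit genes 15 were tested. With irradiation 4 rose and 5 fell in WT and 3 rose and 6 fell in KO (edgeR adjusted p under 0.05), with medians of -0.21 and -0.03 on the log2 scale beside 0.03 and 0.02 over all tested genes. The shares of all genes that rose and fell, given above for each comparison, stand beside these counts and those of the lists that follow. Leaving out any 1 of the 4 WT libraries reduced the 4 rises in WT to 1 or 2, and the block moved the 5 falls in WT to 8 and the 3 rises in KO to 6. Batf2, a basic leucine zipper factor that pairs with Jun proteins, had 1.18 ± 0.0313 CPM in unirradiated and 3.27 ± 0.989 in irradiated WT. In KO it had 0.451 ± 0.379 and 24.3 ± 2.29 CPM. It rose by 5.56 ± 0.42 on the log2 scale in KO (edgeR adjusted p = 5.84e-05). Atf4, the amino acid stress factor, fell in WT from 470 ± 16.2 to 206 ± 0.938 CPM, by -1.19 ± 0.07 (edgeR adjusted p = 3.47e-05). In KO the mean of Atf4 went from 422 to 224 CPM.

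The wider class of immediate early genes was described by a list of 44 further genes, of which 43 were tested. In WT 8 rose and 14 fell, and in KO 7 rose and 16 fell, with medians of -0.25 and -0.31. Over all tested genes 20.4 percent rose and 18.4 percent fell in WT, and 21.1 and 18.6 percent in KO, so the rises were under that share and the falls above it. The called changes were of mixed direction. Egr2, a relative of Egr1, rose in WT from 2.09 ± 0.315 to 7.73 ± 1.1 CPM, by 1.88 ± 0.29 on the log2 scale (edgeR adjusted p = 0.00193). Id2, an inhibitor of basic helix-loop-helix factors, rose in WT from 59.0 ± 6.98 to 157 ± 9.23 CPM, by 1.41 ± 0.13 (edgeR adjusted p = 0.000179), while Nr4a1, an orphan nuclear receptor, fell from 15.9 ± 2.65 to 6.55 ± 1.44 CPM, by -1.28 ± 0.25 (edgeR adjusted p = 0.00574). In KO Gem, a small GTP-binding protein gene, rose from 2.14 ± 0.311 to 13.4 ± 2.71 CPM, by 2.62 ± 0.25 (edgeR adjusted p = 0.000192), and Ier5l fell from 17.6 ± 0.201 to 6.61 ± 1.04 CPM, by -1.42 (edgeR adjusted p = 0.000554). There the stress gene Gadd45b rose from 6.86 ± 0.387 to 22.9 ± 2.54 CPM, by 1.73 ± 0.17 (edgeR adjusted p = 0.000215). The synaptic gene Arc fell there from 14.8 ± 0.687 to 5.7 CPM, by -1.37 ± 0.15 (edgeR adjusted p = 0.000412). Apart from Egr2, the means of these genes moved the same way in the other line. Mean CPM in KO went from 55.8 to 141 for Id2 and from 11.9 to 8.08 for Nr4a1, which was not called there (edgeR adjusted p = 0.11, block adjusted p = 0.00194). In WT the means went from 11.3 to 25.7 for Gadd45b, 4.07 to 8.08 for Gem, 35.9 to 16.7 for Ier5l and 15.4 to 9.01 for Arc. Egr2 stayed under 1 CPM in KO. With the block, the interaction was called for Gem, Gadd45b, Nr4a1 and Arc (block adjusted p = 6.15e-05, 0.0372, 0.0221 and 0.0305). Without the block it was not called for these genes (edgeR adjusted p = 0.0652, 0.383, 0.472 and 0.283). The 8 rises in WT became 4 without replicate 1 of either WT group and 5 without unirradiated WT replicate 2. The 16 falls in KO became 10 without irradiated KO replicate 1 and 8 without irradiated KO replicate 2. With the block 23 fell in WT and 12 rose in KO.

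Between the lines, 2 of these 43 genes were higher and 14 lower in KO without irradiation, and 7 higher and 14 lower after it, beside 10.4 and 9.49 percent of all genes without and 13.3 and 11.4 percent after irradiation. Dusp1, a phosphatase that switches off JNK, p38 and ERK, had the larger difference of the first pair. It had 57.3 ± 9.11 CPM in unirradiated WT, 69.5 ± 7.56 in irradiated WT, 226 ± 16.7 in unirradiated KO and 160 ± 14.4 in irradiated KO. The KO effect on Dusp1 was 1.98 ± 0.14 without irradiation (edgeR adjusted p = 0.000148) and 1.20 ± 0.13 after it (edgeR adjusted p = 0.000662). Egr2 had 7.73 ± 1.1 CPM in irradiated WT against 0.931 ± 0.296 in irradiated KO, a difference of -3.03 ± 0.31 (edgeR adjusted p = 0.00045). The 2 higher genes became 1 without any one library of the unirradiated groups or of irradiated KO, the 14 lower became 8 without unirradiated WT replicate 1, and the 7 became 1 to 3 without any one irradiated library. With the block 8 were higher and 22 lower without irradiation, and 13 and 22 after it.

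The kinases and SRF partners that induce immediate early genes were described by 21 tested genes. With irradiation 1 rose and 6 fell in WT and 3 rose and 7 fell in KO, with medians of -0.15 and -0.14. Elk1, an SRF partner that ERK phosphorylates, rose in WT from 35.3 ± 0.144 to 51.7 ± 0.205 CPM, by 0.55 ± 0.09 (edgeR adjusted p = 0.00303). Map3k5, an upstream kinase of JNK and p38, fell in KO from 43.0 ± 3.52 to 20.2 ± 3.43 CPM, by -1.09 ± 0.13 (edgeR adjusted p = 0.000518). Both moved alike in the other line, Elk1 by 0.38 ± 0.09 in KO and Map3k5 by -0.77 ± 0.12 in WT (edgeR adjusted p = 0.0146 and 0.00245). The 6 falls in WT became 3 without either unirradiated WT replicate or irradiated WT replicate 1. With the block the WT counts were 3 higher and 11 lower. In KO the 3 rises became 1 without either unirradiated replicate or irradiated replicate 2, and the 7 falls became 3 without unirradiated replicate 1 or irradiated replicate 2.

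Of 13 MAPK phosphatases and feedback inhibitors, which ERK activity itself induces in many cells, 12 were tested. In each line 1 rose and 7 fell with irradiation, with medians of -0.43 in WT and -0.60 in KO. Dusp6, a phosphatase specific for ERK, fell in KO from 44.5 ± 3.53 to 15.8 ± 1.53 CPM, by -1.49 ± 0.13 (edgeR adjusted p = 0.000124). In WT the mean of Dusp6 went from 59.4 to 26.7 CPM. Dusp7 fell in WT from 103 ± 2.38 to 44.4 ± 2.12 CPM, by -1.22 ± 0.09 (edgeR adjusted p = 6.04e-05). Dusp10, which acts on JNK and p38, rose there from 61.0 ± 4.02 to 82.7 ± 3.55 CPM, by 0.44 ± 0.08 (edgeR adjusted p = 0.00414). In KO the changes were -1.145 for Dusp7 and 0.575 for Dusp10 (edgeR adjusted p = 5.65e-05 and 0.00118).

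Of 18 genes known as AP-1 targets in other settings, 17 were in the table and 13 were tested. With irradiation 5 rose and 4 fell in WT and 6 rose and 3 fell in KO, with medians of 0.51 and 0.22. Mmp9, a matrix metalloprotease, went in WT from 1.35 ± 0.357 to 10.7 ± 1.03 CPM, by 2.98 ± 0.38 (edgeR adjusted p = 0.000841). Timp1, a metalloprotease inhibitor, fell from 185 ± 4.48 to 58.6 ± 2.97 CPM, by -1.66 ± 0.07 (edgeR adjusted p = 1.14e-05). In KO the cyclin gene Ccnd1 fell from 695 ± 59.3 to 196 ± 14.1 CPM, by -1.83 ± 0.13 (edgeR adjusted p = 3.75e-05), and the secreted protein gene Spp1 rose from 39.8 ± 0.0797 to 160 ± 10 CPM, by 2.01 ± 0.09 (edgeR adjusted p = 3.25e-06). Sprr1a, a cornified envelope gene, had 0.125 ± 0.0819 CPM in unirradiated WT and 8.9 ± 0.415 in unirradiated KO, a difference of 6.05 ± 0.31 (edgeR adjusted p = 6.95e-05).

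Of 15 genes of the Myc network 12 were tested. With irradiation 5 rose and 2 fell in WT and 4 rose and 2 fell in KO. Mxd4, which competes with Myc for Max and represses Myc targets, had 20.9 and 20.5 CPM in unirradiated WT, 65.0 and 66.7 in irradiated WT, 51.1 and 50.3 in unirradiated KO, and 87.5 and 92.1 in irradiated KO. The 4 groups did not overlap, and their order was the reverse of that of Jun except that the middle pair changed places. It rose by 1.67 ± 0.08 on the log2 scale with irradiation in WT (edgeR adjusted p = 1.26e-05) and by 0.83 ± 0.07 in KO (edgeR adjusted p = 0.000137). It was 1.29 ± 0.08 higher in KO without irradiation (edgeR adjusted p = 9.35e-05). The irradiation effect differed between the lines by -0.84 ± 0.11 (edgeR adjusted p = 0.00819; 0.0542 without irradiated KO replicate 1). The Mxd genes did not all move with Mxd4. Mxd3 fell with irradiation by -0.69 ± 0.15 in WT, from 34.3 to 21.1 CPM, and by -0.90 ± 0.16 in KO (edgeR adjusted p = 0.00962 and 0.00342). After irradiation Mxd3 was lower in KO by -0.53 ± 0.16 (edgeR adjusted p = 0.044). Mxd1, like Mxd4, rose in KO, by 0.85 ± 0.15 (edgeR adjusted p = 0.00328), and its mean in WT went from 5.42 to 11.1 CPM. The log2 change of Max itself was 0.13 in WT (edgeR adjusted p = 0.42, block adjusted p = 0.0441) and 0.24 in KO (edgeR adjusted p = 0.154, block adjusted p = 0.000533).

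As a description, the ratio of Myc to Mxd4 in CPM per kb was 19.8 and 22.5 in unirradiated WT, 4.24 and 4.81 in irradiated WT, 7.3 and 8.34 in unirradiated KO, and 1.66 and 1.99 in irradiated KO. The groups did not overlap in this ratio, which leaves out the other Mxd genes. Its absolute size depends on the long exon union of Mxd4, but its order over the groups does not. Pim1, a kinase that stabilises Myc, went in WT from 20.3 ± 2.73 to 51.6 ± 10 CPM, by 1.34 ± 0.23 (edgeR adjusted p = 0.00339), and in KO from 30.2 ± 7.3 to 77.6 ± 17.6 CPM, by 1.37 ± 0.23 (edgeR adjusted p = 0.00264). Of the network counts, the 2 falls in WT were 1 without any one WT library and the 2 in KO were 1 without unirradiated or irradiated KO replicate 2, and DESeq2 called 1 in each line. The block called 7 rises in KO.

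**Figure D4:**
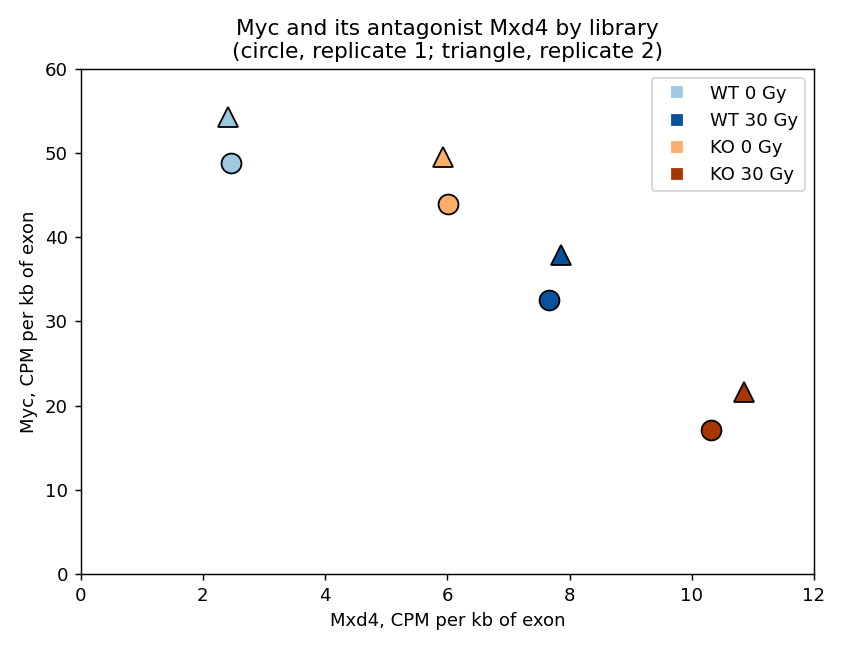
Level of Myc (vertical axis) against level of Mxd4 (horizontal axis), both in CPM per kb of exon on linear axes from 0, with a circle for replicate 1 and a triangle for replicate 2 of each group. Unirradiated WT sits at the upper left, with 48.7 and 54.3 for Myc and 2.47 and 2.41 for Mxd4, and irradiated KO at the lower right, with 17.1 and 21.7 for Myc and 10.3 and 10.9 for Mxd4.

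The 30 Myc target genes of growth and ribosome synthesis fell almost throughout. With irradiation 0 rose and 29 fell in each line, with medians of -0.85 in WT and -1.01 in KO beside 0.03 and 0.02 over all tested genes. The remaining gene was Odc1 in WT, at -0.21 (edgeR adjusted p = 0.0623, block adjusted p = 3.44e-05), and Ccnd2 in KO, at 0.18 (edgeR adjusted p = 0.0992, block adjusted p = 0.000644). With the block, then, all 30 fell in WT, and in KO 29 fell and Ccnd2 rose. Srm, which makes spermidine, went in WT from 121 ± 0.64 to 38.0 ± 0.287 CPM, by -1.68 ± 0.08 (edgeR adjusted p = 1.24e-05). Dkc1, the pseudouridine synthase of ribosomal RNA, went in KO from 111 ± 3.07 to 34.4 ± 1.78 CPM, by -1.69 ± 0.09 (edgeR adjusted p = 7.93e-06). Leaving out 1 library at a time gave 27 to 29 falls in WT and 28 to 29 in KO. In WT the median fall of the list exceeded that of Myc itself, at -0.55, and in KO it was smaller than that of Myc, at -1.27.

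Between the lines fewer of the 30 genes were called. Without irradiation 2 were higher and 8 lower in KO, with a median of -0.26 beside -0.01 over all tested genes. The 2 higher genes were lost without any 1 of the 8 libraries, and the 8 lower became 2 to 4 without any one unirradiated library and 22 with the block. After irradiation 1 was higher and 18 lower, with a median of -0.43. Nop56, a core protein of ribosomal RNA methylation, was lower by -0.65 ± 0.07 without and by -0.77 ± 0.07 after irradiation (edgeR adjusted p = 0.000741 and 0.00022). The higher gene was Ccnd2, a cyclin of the G1 phase, with 210 ± 4.83 CPM in irradiated KO against 79.0 ± 1.86 in irradiated WT, a difference of 1.41 ± 0.08 (edgeR adjusted p = 2.67e-05).

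**Figure D5:**
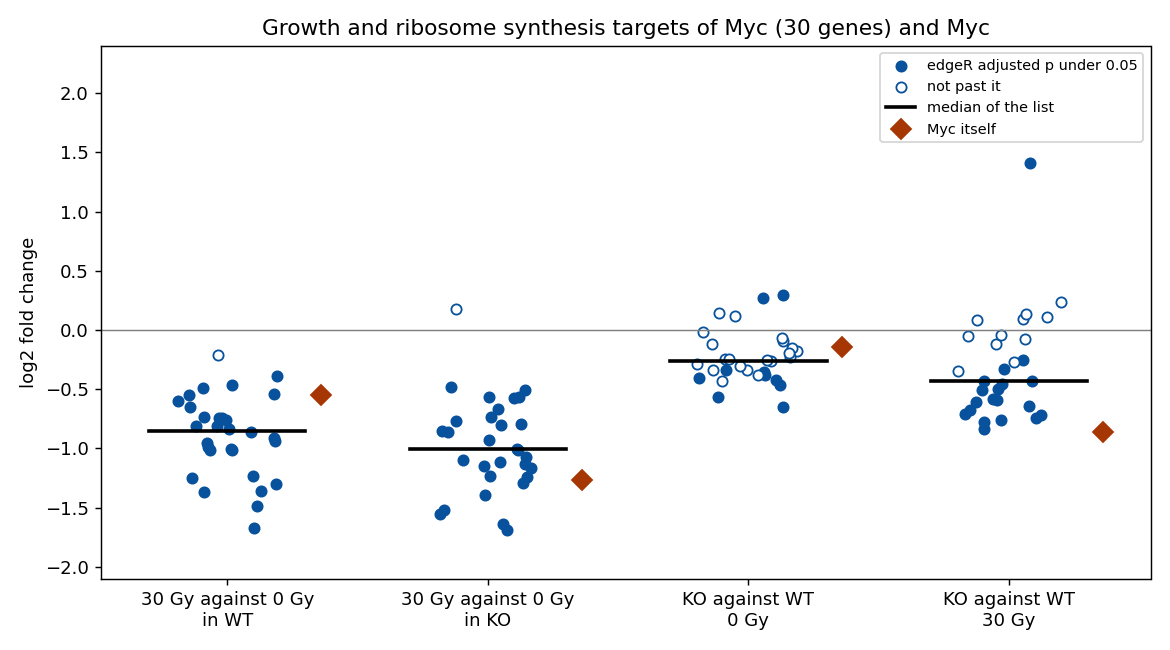
Log2 fold changes of the 30 Myc target genes (circles, filled at an edgeR adjusted p under 0.05), their median (bar) and Myc itself (diamond) in the 4 comparisons. After 30 Gy all but 1 gene are filled and below 0 in each line, with medians at -0.85 and -1.01, and Ccnd2 stands alone at 1.41 in KO against WT at 30 Gy.

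The genes whose log2 CPM followed each listed gene most closely over the 8 libraries were taken from the 10519 genes that averaged 5 CPM or more. These correlations share libraries and the 4 groups, and describe only those. For Myc they were Gramd4 (Pearson r = 0.9975, n = 8), Cavin1 (0.9899) and Svil (0.9865). For Jun they were the chaperonin gene Cct8 (0.9939), Mapk11 (0.9937) and Tasp1 (0.9932). For Junb they were Ap5z1 (0.9937), Hs1bp3 (0.9933) and Prdx5 (0.9923), and for Jund Usp47 (0.9871), Polg (0.9859) and Gm10524 (0.9859). Atf3 was followed by Bet1l (0.9665), AW146154 (0.9614) and Rab12 (0.9587). Ier2 was followed by Abcb10 (0.9937), Gstz1 (0.9856) and Timm13 (0.9814), and Ier3 by Mapk8 (0.9846), Ube2d2a (0.9781) and Rexo5 (0.9726). Mapk8 encodes JNK1, and it had 37.6 and 32.1 CPM on average in unirradiated and irradiated WT and 48.2 and 37.9 in KO. Fos, Fosb and Egr1 were under 5 CPM on average and were not searched.

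Among the 10 genes themselves, Jun and Myc ran together (r = 0.887 over the 8 libraries), Fosb ran against both (-0.935 with Jun and -0.866 with Myc), and Jund had an r of 0.0144 with Myc. Junb and Jund, neighbours in the Jun family, had an r of -0.502. These values are a description of 4 groups with 2 libraries each.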

How the data were processed

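The authors deposited a table of raw counts, as whole numbers of reads per Ensembl gene in each of the 8 libraries. The submitters' processing notes name HISAT2, HISAT, HTSeq and DESeq2 without versions, and the build mm10. The sources used here do not give the annotation release, the strand setting or how reads with several matches were handled. Symbols, positions and exon lengths came from GENCODE M21 on GRCm38, which held 28915 of the 29079 gene IDs.

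The analysis used edgeR 4.0.16 in R 4.3.3. A gene passed filterByExpr with a minimum count of 10 and a total of 15, and libraries were scaled with TMM factors of 0.975 to 1.02. The model held all 8 libraries and the 4 groups, which leaves 4 residual degrees of freedom. The common dispersion was 0.0199. Comparisons were tested two-sided by quasi-likelihood, with Benjamini-Hochberg adjustment over 14923 genes. The standard error (SE) was taken from the F statistic. CPM used the TMM factors, and CPM per kb the union of annotated exons. The test was checked on simulated data.

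Alternatives were RLE scaling, no low-count filter, DESeq2 1.42.0, the replicate number as a block, and leaving out each library. The replicate numbers come from the sample titles. Over the 12 pairs of libraries with the same number in different groups, deviations from the group means correlated at 0.759 to 0.793. Each was over the threshold of 0.1, so the numbers were taken to pair the libraries. With 2 libraries in a group the deviations mirror each other. The pair of replicates 1 and the pair of replicates 2 of any 2 groups therefore share 1 value and are not separate checks.

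The 10 genes and the gene lists were chosen with earlier results of these data known. The lists are other AP-1 and CRE-binding subunits, other immediate early genes, MAPK and SRF inputs, MAPK phosphatases and feedback inhibitors, Myc network, Myc targets, AP-1 targets, heat shock genes, mitochondrially encoded genes, and markers of macrophages, fibroblasts, endothelium, T and NK cells and epithelium. Named were the 10 genes, up to 2 of the largest called rises and falls per list and comparison with at least 5 CPM in the higher group, the 3 closest genes by Pearson r, and Piezo2. Marker genes given by their reads and genes shown as not called, as overlapping or as Fos family members were added after their values were seen. Reads carry no molecular identifiers, and depth limits Fos and Fosb most.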

Additional observations from a re-analysis of the deposited data

Results flagged for a closer look

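Of the 10 genes none passed the edgeR interaction test in the fit without the replicate block. With the block Myc and Egr1 passed it (block adjusted p = 4.95e-10 and 0.00208), and DESeq2 called Myc (adjusted p = 0.0236). Over all tested genes the edgeR interaction test without the block called 1.37 percent higher and 0.57 percent lower. Among the genes of the lists, 10 that could be named by the rule passed without the block, of which 2 are fibroblast markers. Their log2 change with irradiation differed between the lines (KO minus WT, edgeR quasi-likelihood test with adjustment over all genes). Batf2 had a difference of 4.11, with 1.46 in WT and 5.56 in KO (edgeR adjusted p = 0.0137, and called in 5 of 8 fits that left out 1 library). Ccnd2 had a difference of 1.11, with -0.93 in WT and 0.18 in KO (edgeR adjusted p = 0.00255, called in 8 of 8). Spp1 had a difference of 0.95, with 1.06 in WT and 2.01 in KO (edgeR adjusted p = 0.00672, called in 7 of 8). Map2k1, the ERK kinase MEK1, had a difference of 0.78, with -0.15 in WT and 0.63 in KO (edgeR adjusted p = 0.00628, called in 7 of 8). Mxd4 had a difference of -0.84, with 1.67 in WT and 0.83 in KO (edgeR adjusted p = 0.00819, called in 7 of 8). Plau, the urokinase gene, had a difference of -1.61, with 1.36 in WT and -0.25 in KO (edgeR adjusted p = 0.0474, called in 0 of 8). Plk2, a polo-like kinase, had a difference of -0.60, with 0.29 in WT and -0.31 in KO (edgeR adjusted p = 0.0475, called in 0 of 8). Ccn1, a matrix protein gene, had a difference of -0.55, with -0.77 in WT and -1.31 in KO (edgeR adjusted p = 0.0493, called in 0 of 8). Of the fibroblast markers, Dcn had a difference of -1.71, with 4.44 in WT and 2.73 in KO (edgeR adjusted p = 0.00735, called in 7 of 8). Pdgfra had a difference of -1.14, with 0.82 in WT and -0.32 in KO (edgeR adjusted p = 0.00252, called in 8 of 8). All 10 were also called by DESeq2 and with the replicate block.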

How the results depend on the processing

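The 10 genes were refitted under 12 alternatives in 5 comparisons, giving 599 values; 524 kept direction and side of the threshold, 31 passed it newly, 35 no longer passed it and 9, none of them called, changed sign. The 9 arose on leaving out a library. With irradiation in WT, Fos ran from -0.0867 to 1.88 and Atf3 from -0.14 to 0.22, and in KO Egr1 from -0.10 to 0.26, with -0.07 without irradiated KO replicate 2. In the interaction, Fos ran from -0.59 to 1.37, Ier3 from -0.37 to 0.0045, Fosb from -0.34 to 0.15, Junb from -0.34 to 0.0269 and Jund from -0.44 to 0.11. The replicate block, which pairs libraries, changed counts most. With irradiation it called 4465 genes lower in WT and 4417 in KO, where 4 of the 10 were higher and 5 lower. Between the unirradiated lines it called 3197 genes higher and 3504 lower, and 3 and 4 of the 10. Between the irradiated lines it called 3761 and 3755, and 6 of the 10 higher. In the interaction it called 1216 and 1276, and 1 of the 10 each way. Without the low-count filter 5 of the 10 were lower with irradiation in KO, 2 were higher and 2 lower between the unirradiated lines, and the interaction called 359 genes higher and 219 lower, with 1 of the 10 lower. DESeq2 called 1 of the 10 higher between the irradiated lines and 1 lower in the interaction. Leaving out 1 library gave 1812 to 2754 genes lower with irradiation in WT. In KO it gave 2072 to 3104 higher and 1832 to 2883 lower, with 1 to 3 of the 10 higher. Between the unirradiated lines it gave 788 to 1409 higher and 676 to 1139 lower, with 0 to 1 of the 10 each way. Between the irradiated lines it gave 1100 to 1887 higher and 792 to 1592 lower, with 0 to 3 of the 10 higher. In the interaction it gave 99 to 124 higher and 18 to 31 lower, and 0 of the 10. These fits have fewer libraries and 3 residual degrees of freedom, and a group left with 1 library was assumed to vary like the others. RLE scaling moved none of these counts by over 1.5 times, and no scaling shifted the median of all genes by 0.1. Fos, with 3 to 34 reads per library, is limited by depth.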
